A study of Rattus norvegicus with 6 samples.

Results

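The SOX and forkhead genes are 2 families of transcription factors, and 42 of them were measured in newborn rat ovaries cultured with or without connective tissue growth factor (CTGF). Each probe set with a single gene symbol in the platform annotation was taken as a member where that symbol was Sox or Foxa to Foxs with a number, and where a gene had more than 1 such probe set the brightest was used. This gave 14 SOX and 28 forkhead genes on 43 of the 27342 probe sets, out of 14324 genes with a symbol of their own. RefSeq lists 65 protein-coding genes of these families in the rat, and 23 of them, among them Foxl2, Foxc1, Sox3, Sox9, Sox30 and Foxj1, were not analysed here. The 6 arrays measured RNA of whole ovaries from female Sprague-Dawley pups taken at 0 days of age. The control ovaries were kept untreated in organ culture for 24 h and the treated ovaries with human CTGF at 500 ng/ml. Each array held a pool of 2 to 3 ovaries of littermates from a single culture well. Each of the 3 culture batches gave 1 control and 1 CTGF pool, so that the arrays form 3 pairs.

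SOX proteins bind DNA through a high mobility group box and bend it, and forkhead proteins bind through a winged helix domain. In the gonad they are known for fate decisions and for the dormancy of oocytes: Sox9 directs the testis, Foxl2 holds granulosa cells to the ovarian fate, and Foxo3 keeps primordial follicles at rest until it is phosphorylated by AKT and leaves the nucleus. Transcript levels do not report that last step, which acts on the protein.

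A signal was called above background where the mean of the 6 arrays passed the 95th percentile of 43 probe sets for genes of other organs such as retina, pancreas and kidney, at 5.62 on the log2 scale or 49.1 un-logged. By that level 16 of the 42 members were above background, 6 of 14 SOX and 10 of 28 forkhead genes, against 59.0% of all genes with a symbol of their own. The median log2 signal was 5.02 for the SOX and 4.58 for the forkhead genes, and 6.42 for all those genes. Both families were therefore mostly at or near the level of genes of other organs, and a minority stood clear of it. Sox15, at 69.6, was the lowest member above background and Foxb2, at 43.3, the highest below. The ovary labels were borne out by the markers, since all 7 oocyte markers, all 11 pregranulosa markers and all 8 stromal markers with a probe set were above background. Probe sets differ in how well they bind, so the order of signals is a description of the array and ranks no transcript against another.

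**Figure D1:**
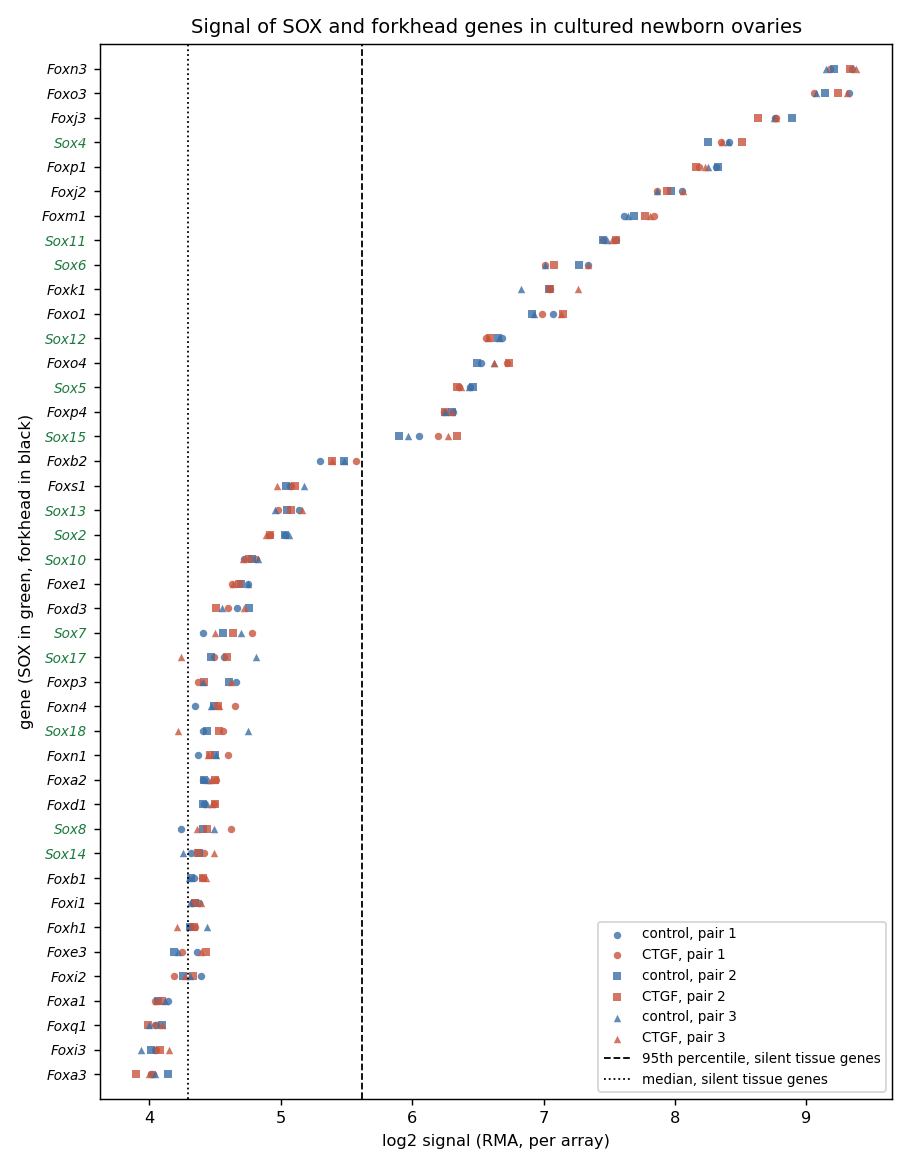
Log2 signal of the 42 SOX and forkhead genes (rows, by falling mean signal) on each of the 6 arrays, with control in blue, CTGF in red and the symbol giving the pair. The dashed line is the 95th percentile and the dotted line the median of the silent tissue genes, and 16 genes from Foxn3 to Sox15 lie to the right of the dashed line.

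Among all 42 members the control and CTGF groups lay close together. None of them passed an adjusted p of 0.05 in limma, fitted with a term for culture batch, and neither did any other probe set (0%), the smallest adjusted p being 0.994. At an unadjusted p under 0.05 limma called 1 member, Sox15, which is 2.38% of the members against 3.35% of all probe sets. It was higher with CTGF, a direction called for 1.45% of all probe sets, and no member was called lower, against 1.89%. The methods' 2-way test, which does not moderate the spread, called 0 members after adjustment. At an unadjusted p under 0.05 it called 5 of 42 members, against 4.2% of all probe sets. The 5 members were Sox2, Sox5, Sox12, Foxb1 and Foxd1, so no member was called by both tests. Of these, Sox2, Foxb1 and Foxd1 were below background. The SOX genes had a median log2 difference of -0.00 (7 above and 7 below 0) and the forkhead genes of 0.02 (15 above and 12 below 0), beside -0.00 for all probe sets. The differences ran from -0.18 for Sox17 to 0.30 for Sox15, with standard errors of 0.063 to 0.138.

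The precision was set by the 3 pairs, which leave 2 residual degrees of freedom, and an exact sign-flip test on 3 pairs cannot go below p = 0.25. Even so, the 95% interval of the difference lay within 1.5-fold either way for 42 of 42 members, against 98.9% of all probe sets. It lay within 1.2-fold for 20 of 42 members, against 61.7% of all probe sets. Of the 16 members above background, all 16 lay within 1.5-fold and 6 within 1.2-fold. These intervals rest on the moderated standard errors of limma. The 2-way test gave larger ones for some members, such as 0.149 against 0.105 for Foxo3 and 0.217 against 0.138 for Sox18. For others it gave smaller ones, such as 0.018 against 0.063 for Sox12. Intervals from that test, which has only the 2 residual degrees of freedom, were not counted. The counts within 1.5-fold and 1.2-fold therefore hold for limma alone. For the 26 members below background a narrow interval limits no change of the transcript, since their signal is that of genes of other organs.

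**Figure D2:**
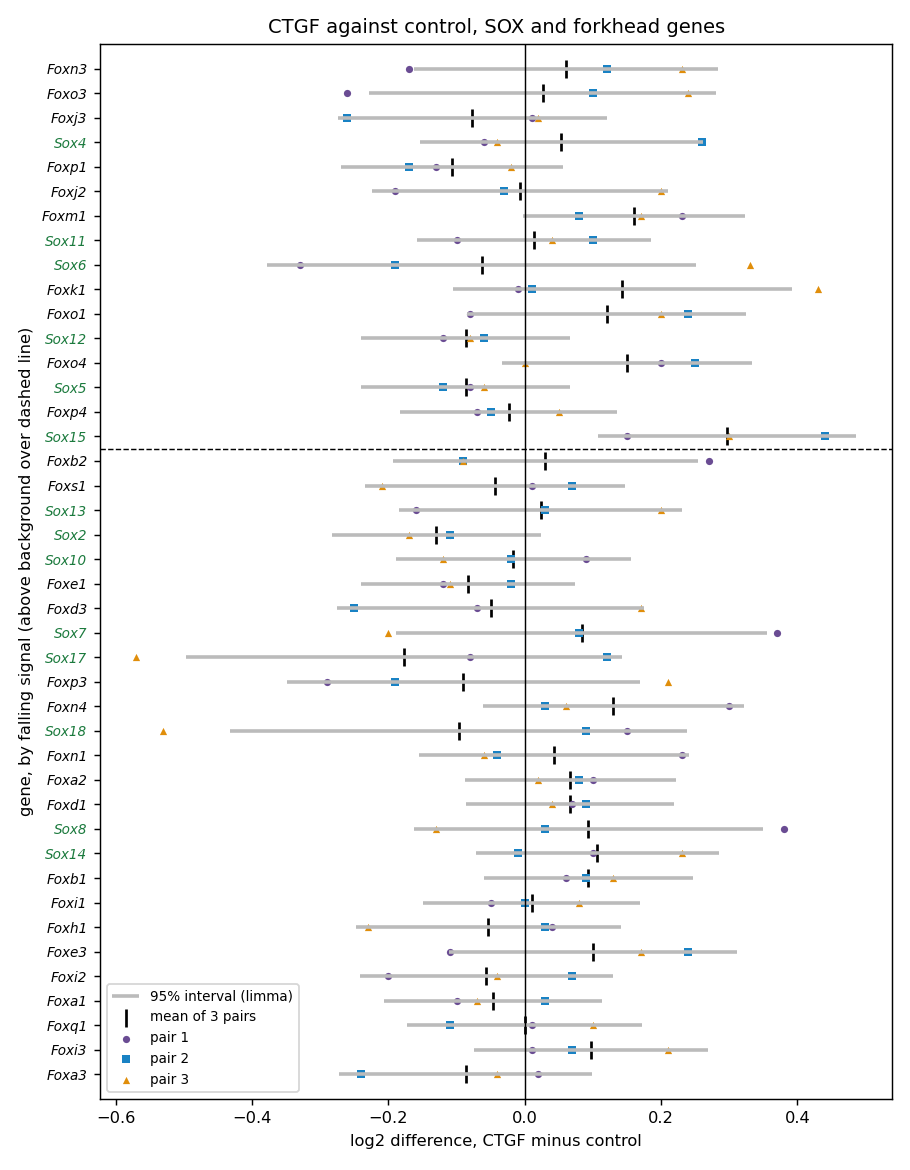
Log2 difference, CTGF minus control, of the 42 members (rows, by falling signal), with a coloured symbol for each of the 3 pairs, a black tick for their mean and a grey bar for the 95% interval of limma. Rows over the dashed line are above background. The bar of Sox15 (0.11 to 0.49) is the only bar clear of 0.

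Sox15 is the only member of SOX group G, known for a part in placental giant cells and in muscle regeneration. Its log2 signal was 6.05, 5.90 and 5.97 in the control pools and 6.20, 6.34 and 6.27 in the CTGF pools of pairs 1, 2 and 3. Each CTGF pool was above every control pool. Un-logged, this was 62.9 ± 3.28 in control and 77.2 ± 3.75 with CTGF (SD, n = 3), a ratio of 1.23. Batch differences had been removed before deposit, so the SDs given here and below do not measure the full spread between pools. The log2 difference was 0.30 ± 0.078 (SE), with unadjusted p = 0.00848 and adjusted p = 0.994 in limma. It was the only member at the criteria of the methods with the p of limma (a ratio over 1.2 or under 0.83, a difference over 10 between un-logged means and an unadjusted p under 0.05), which 0.435% of all probe sets met. The call was lost without pair 2 or pair 3: the unadjusted p of limma was 0.0187 without pair 1, 0.0654 without pair 2 and 0.0762 without pair 3, and it was 0.0713 in the methods' 2-way test of all pairs. The highest of the silent tissue genes had a signal of 73.8, within the range of Sox15, so its level was low throughout.

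The 250 bases before the Sox15 start are shown because it is the member with the clearest difference, from RefSeq on the GRCr8 assembly at chr10:54871543-54871792 (plus strand), read 5′ to 3′ with the SOX motif AACAAT in capitals.
Sox15 promoter: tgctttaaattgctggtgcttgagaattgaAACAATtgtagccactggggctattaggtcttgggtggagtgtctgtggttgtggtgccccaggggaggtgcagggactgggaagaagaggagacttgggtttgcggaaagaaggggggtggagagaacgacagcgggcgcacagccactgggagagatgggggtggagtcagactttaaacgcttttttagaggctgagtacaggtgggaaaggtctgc
The motif starts 220 bases before the start of the gene. AACAAT, or ATTGTT on the other strand, was found in 2 of the 27 members with a promoter in this table, Sox15 and Foxn1, and in 10.3% of all 27457 promoters. A match of these letters is a description of the sequence and not a bound site.

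The members that were the same way round in all 3 pairs were counted next. In these files that is the same as groups that do not overlap, because the mean of each pair is equal to within 0.005. CTGF was higher in all 3 pairs for 7 of 42 members (16.7%), namely Sox15, Foxm1, Foxn4, Foxa2, Foxd1, Foxb1 and Foxi3, against 9.41% of all probe sets. It was lower in all 3 pairs for 5 of 42 (11.9%), namely Sox12, Sox5, Sox2, Foxp1 and Foxe1, against 10.9%. In either direction this made 12 of 42 (28.6%) against 20.3%, and above background 5 of 16 against 19.1%. Of these 12, Sox15, Foxm1, Foxp1, Sox12 and Sox5 had a signal above background, and the other 7 did not.

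Foxm1, which drives genes of the G2 and M phases of the cell cycle, came next to Sox15. Its log2 signal was 7.61, 7.69 and 7.64 in the control pools and 7.84, 7.77 and 7.81 with CTGF. The groups did not overlap. The un-logged signal was 200.4 ± 5.63 in control and 223.9 ± 5.44 with CTGF (SD, n = 3), a log2 difference of 0.16 with a 95% interval from -0.00 to 0.32 and unadjusted p = 0.0525 in limma. With the array medians centred this p of limma was 0.0412, and with quantile normalization it was 0.0555. It was 0.158 without pair 1, 0.0577 without pair 2 and 0.12 without pair 3. The methods' 2-way test of all pairs gave Foxm1 an unadjusted p of 0.0669. Of 10 textbook FOXM1 targets, 8 had a probe set and 7 of those were above background. Their median difference was 0.00, with 4 above and 4 below 0, and no target was called by limma either before or after adjustment. Plk1, a mitotic kinase, had 0.18 ± 0.115 (SE), Kif20a, a mitotic kinesin, -0.12 ± 0.081, and Ccnb2, cyclin B2, 0.03 ± 0.088. By pair the target medians were 0.08, 0.14 and -0.19, whereas Foxm1 was higher with CTGF by 0.23, 0.08 and 0.17, so in pair 3 the gene and the median of its targets lay on opposite sides of 0.

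The FOXO genes Foxo1, Foxo3 and Foxo4 are the forkhead members best known in follicles, where AKT signalling keeps their proteins out of the nucleus. Foxo3 was among the brightest of all members. Its log2 signal was 9.32, 9.14 and 9.07 in control and 9.06, 9.24 and 9.31 with CTGF, so the ranges of the groups overlapped almost fully. The signal was 580.3 ± 52.7 in control and 591.0 ± 51.9 with CTGF (SD, n = 3), a log2 difference of 0.03 with a 95% interval from -0.23 to 0.28. Pair 1 lay at -0.26 and pairs 2 and 3 at 0.10 and 0.24. The difference was 0.17 without pair 1, -0.01 without pair 2 and -0.08 without pair 3, so its sign depended on the pairs included.

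Foxo1 and Foxo4 were dimmer and lay slightly higher with CTGF in most pairs. Foxo1 had log2 signals of 7.07, 6.91 and 6.93 in control and 6.99, 7.15 and 7.13 with CTGF, a difference of 0.12 ± 0.084 (SE). The control pool of pair 1 lay inside the CTGF range. The difference was 0.22 without pair 1, 0.06 without pair 2 and 0.08 without pair 3, with unadjusted p of 0.0411, 0.607 and 0.531 in limma. Foxo4 had 6.52, 6.49 and 6.62 in control and 6.72, 6.74 and 6.62 with CTGF, a difference of 0.15 ± 0.076 (SE) with unadjusted p = 0.0935 in limma. Pair 3 showed no difference. The value was 0.125 without pair 1, 0.10 without pair 2 and 0.225 without pair 3, with unadjusted p of 0.293, 0.334 and 0.03 in limma. No FOXO gene was called in all 3 pairs together.

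The pathway around the FOXO proteins was read from lists of textbook members. Of 16 genes of the PI3K, AKT and mTOR pathway, of which AKT acts on FOXO and the mTOR branch runs beside it, 13 had a probe set and all 13 were above background. None of them was called by limma at an unadjusted p under 0.05 or after adjustment. Of the 13, 11 lay above 0 and 2 below, against 6958 of 14399 probe sets above background that lay above 0, and the median difference was 0.04. Pik3cb, a catalytic subunit of PI3K, was at 248.5 ± 8.78 in control and 279.6 ± 9.79 with CTGF (SD, n = 3), with pairs at 0.28, 0.08 and 0.15 and unadjusted p = 0.0511 in limma. Akt2, which phosphorylates FOXO proteins, had a difference of 0.05. Of 16 FOXO targets, 15 had a probe set and 13 were above background, and none was called by limma at an unadjusted p under 0.05. Of these 15 targets 10 lay above 0 and 5 below, with a median of 0.01, against 12905 of all 27342 probe sets above 0. Fbxo32, a ubiquitin ligase gene, had -0.10 ± 0.066 (SE). Bcl2l11, which encodes the death protein BIM, had -0.13 ± 0.079 but was below background.

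**Figure D3:**
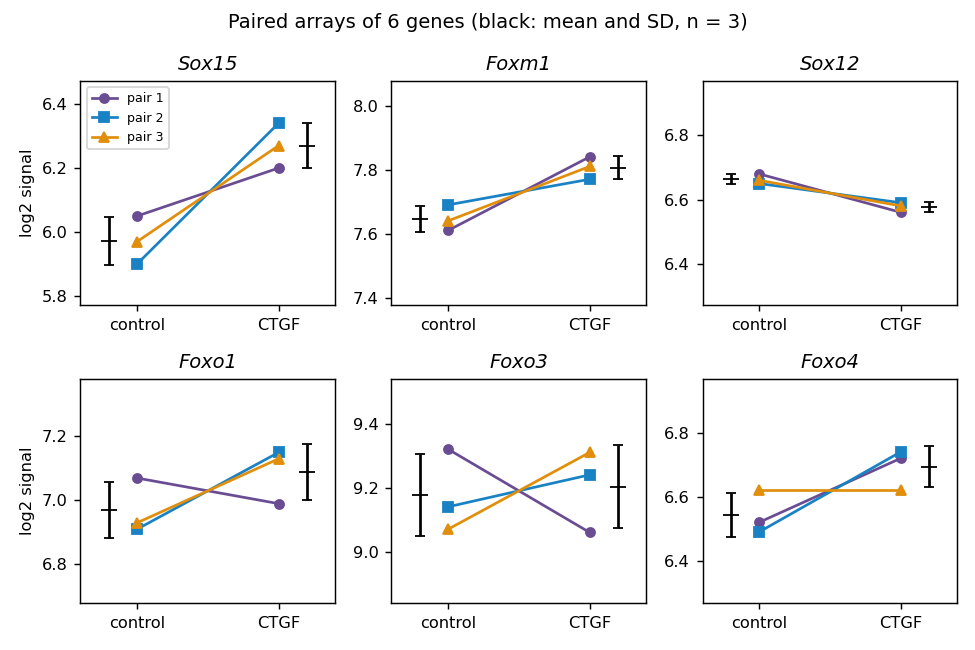
Log2 signal of Sox15, Foxm1, Sox12, Foxo1, Foxo3 and Foxo4 in the control and CTGF array of each pair, joined by a line, with black bars for the mean and SD of each group (n = 3). All panels span the same height of the log2 axis. The lines of Sox15 and Foxm1 all climb and those of Sox12 all descend. For Foxo3 the line of pair 1 descends and those of pairs 2 and 3 climb. Lines cross within a panel because the pair means had been made equal before deposit.

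The brightest forkhead gene was Foxn3, known as a repressor in the DNA damage checkpoint. Its log2 signal was 9.35, 9.21 and 9.15 in control and 9.18, 9.33 and 9.38 with CTGF. The groups overlapped, and the difference was 0.06 with a 95% interval from -0.16 to 0.28. The gene had a dimmer probe set with a mean log2 signal of 7.74 and a difference of 0.07 ± 0.069 (SE). Foxn3 is shown as an example of a dense CpG promoter, with the 250 bases before its start from RefSeq on GRCr8 at chr6:124572041-124572290 (minus strand), 5′ to 3′ and each CpG in capitals.
Foxn3 promoter: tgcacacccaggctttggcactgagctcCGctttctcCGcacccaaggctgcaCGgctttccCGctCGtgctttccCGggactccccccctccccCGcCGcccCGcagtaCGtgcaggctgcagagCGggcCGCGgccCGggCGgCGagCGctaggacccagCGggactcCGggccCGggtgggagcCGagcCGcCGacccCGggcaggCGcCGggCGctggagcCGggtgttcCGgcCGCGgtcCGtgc
It held 32 CpG and 76.8% G and C. The 27 members with a promoter had a median of 14 CpG in this window, against 6 for all 27457 promoters, and 11 of the 27 (40.7%) had at least 20, against 18.0%. Among them the 11 members above background had a median of 28 CpG and the 16 below it of 11. These are counts over the members with an entry, with no test, and Sox15 with 5 CpG was among those with few.

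Foxp1 and Foxp4 are partners within the FOXP subfamily, which acts in lung, heart and lymphocytes. Foxp1 had log2 signals of 8.31, 8.33 and 8.25 in control and 8.18, 8.16 and 8.23 with CTGF. All control pools were above all CTGF pools, at 314.5 ± 9.02 against 292.1 ± 7.33 (SD, n = 3). The log2 difference was -0.11 ± 0.067 (SE), with unadjusted p = 0.162 in limma. Foxp4 had -0.02 ± 0.066 (SE). The Foxp1 promoter is shown because it was the only member to hold the forkhead motif in this window, at chr4:133353281-133353530 (minus strand) of GRCr8 in RefSeq, 5′ to 3′ with the motif in capitals.
Foxp1 promoter: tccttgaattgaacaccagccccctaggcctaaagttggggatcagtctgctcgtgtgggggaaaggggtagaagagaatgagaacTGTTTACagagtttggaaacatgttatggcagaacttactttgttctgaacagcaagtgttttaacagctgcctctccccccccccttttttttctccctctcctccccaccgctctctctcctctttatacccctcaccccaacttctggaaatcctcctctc
TGTTTAC, which is GTAAACA on the other strand, starts 164 bases before the start of Foxp1 and was found in 1 of the 27 members and in 3.25% of all promoters. The absence of these letters from the other windows says nothing of the factors.

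The remaining forkhead genes above background were Foxj3, Foxj2 and Foxk1. Foxj3 had log2 signals between 8.63 and 8.89, and a difference of -0.08 ± 0.081 (SE). Foxj2 lay between 7.86 and 8.06, with -0.01 ± 0.089. Foxk1, a forkhead gene of muscle progenitors and of metabolism, was at 7.05, 7.04 and 6.83 in control and 7.04, 7.05 and 7.26 with CTGF. Its difference of 0.14 ± 0.102 (SE) came from pair 3, at 0.43, where pairs 1 and 2 gave -0.01 and 0.01. None of the 3 genes had the same sign in all pairs.

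Sox4, Sox11 and Sox12 make up SOX group C, which acts in progenitor cells of many organs, and Sox4 is also known in the fetal gonad. All 3 were above background. Sox4, the brightest SOX gene, had log2 signals of 8.41, 8.25 and 8.40 in control and 8.35, 8.51 and 8.36 with CTGF. Its groups overlapped, with a difference of 0.05 and a 95% interval from -0.15 to 0.26. Sox11 lay between 7.45 and 7.55 on all arrays, with a difference of 0.01 ± 0.071 (SE). Sox12 had 6.68, 6.65 and 6.66 in control and 6.56, 6.59 and 6.58 with CTGF, and its groups did not overlap. That is 101.4 ± 1.07 against 95.5 ± 1.01 (SD, n = 3), a difference of -0.09 with unadjusted p = 0.216 in limma and 0.039 in the methods' 2-way test on the same 3 pairs.

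Group D holds Sox5, Sox6 and Sox13, and Sox5 and Sox6 are best known as partners of Sox9 in cartilage. Sox5 had log2 signals of 6.44, 6.46 and 6.43 in control and 6.36, 6.34 and 6.37 with CTGF. Its groups did not overlap, and the difference of -0.09 ± 0.063 (SE) equalled that of Sox12. Sox6 had 7.34, 7.27 and 7.01 in control and 7.01, 7.08 and 7.34 with CTGF, which overlapped fully. Pairs 1, 2 and 3 of Sox6 were at -0.33, -0.19 and 0.33, and the difference was 0.07 without pair 1, 0.00 without pair 2 and -0.26 without pair 3, with unadjusted p of 0.71, 1 and 0.0376 in limma. Sox13 was below background, with a difference of 0.02 ± 0.086.

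The members that mark other cell types were below background. Sox10, a factor of Schwann cells and other neural crest cells, had a mean log2 signal of 4.77 and a difference of -0.02 ± 0.071 (SE). Of 5 Schwann cell markers with a probe set 1 was above background, and their median difference was 0.00. Foxp3, which defines regulatory T cells, had 4.52 and -0.09 ± 0.107. Of the 7 T cell markers 1 was above background, and Cd3e, a chain of the T cell receptor complex that was below it, had -0.16 with unadjusted p = 0.0482 and adjusted p = 0.994 in limma. Sox8, which acts beside Sox9 in the testis, had 4.43 and 0.09 ± 0.106. Of 7 testis pathway genes 3 were above background, Aard at a mean log2 signal of 9.97, Fgf9 at 7.235 and Ptgds at 6.15. The median difference of the 7 was 0.02, and Ptgds, a prostaglandin D synthase gene, had -0.13 ± 0.068. Sox2, known for pluripotency and the neural lineage, had 5.03, 5.03 and 5.06 in control and 4.92, 4.92 and 4.89 with CTGF. Those groups did not overlap, but at 32.9 and 30.1 both were below background, with unadjusted p = 0.0838 in limma and 0.0229 in the methods' 2-way test.

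Sox7, Sox17 and Sox18 form SOX group F, which acts in endothelial cells of blood and lymph vessels. All 3 were below background, between 4.49 and 4.60 in mean log2 signal. Sox17 had 4.57, 4.47 and 4.81 in control and 4.49, 4.59 and 4.24 with CTGF. Sox18 had 4.41, 4.44 and 4.75 in control and 4.56, 4.53 and 4.22 with CTGF. In both genes pair 3 stood apart, at -0.57 and -0.53, whereas pairs 1 and 2 were at -0.08 and 0.12 for Sox17 and at 0.15 and 0.09 for Sox18. Over all pairs the differences were -0.18 ± 0.132 and -0.10 ± 0.138 (SE), and without pair 3 they were 0.02 and 0.12. Sox7 was at 0.37, 0.08 and -0.20.

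The stromal markers also stood apart in pair 3, whereas the endothelial markers were mixed there. Of 8 endothelial markers with a probe set, 3 were above background and 5, among them Cdh5 and Egfl7, were not. The summed signal of these markers was 556.4 to 621.3 in the control pools and 512.8 to 566.8 in the CTGF pools. Their median difference was 0.06 in pairs 1 and 2 and -0.24 in pair 3, where 5 of the 8 were below 0, against 47.4% of all probe sets. The values in pair 3 ran from -0.64 for Emcn to 0.08 for Tek, an angiopoietin receptor gene. Tie1, at 0.03, and Cldn5, at 0.02, also lay above 0 there. Emcn and Esam were the lowest in that pair. Emcn, an endothelial sialomucin, had 0.20, -0.06 and -0.64, and Esam, an endothelial adhesion molecule, -0.10, 0.03 and -0.61. All 8 stromal markers were lower with CTGF in pair 3, against 51.3% of all probe sets above background. Their median there was -0.47, against 0.14 and 0.04 in pairs 1 and 2, and their sums were 5853 to 7277 in control and 5192 to 6423 with CTGF. Pdgfra, a growth factor receptor of stromal cells, had -1.03 and Lum, a matrix proteoglycan gene, -1.08 in pair 3. In these whole ovaries a different share of cells of a type and a different amount of RNA per cell cannot be told apart. Because pair means had been made equal before deposit, a shift in the CTGF pool of pair 3 cannot be told from one in its control pool. The part of the endothelial and stromal markers in the values of Sox17 and Sox18 was not tested.

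**Figure D4:**
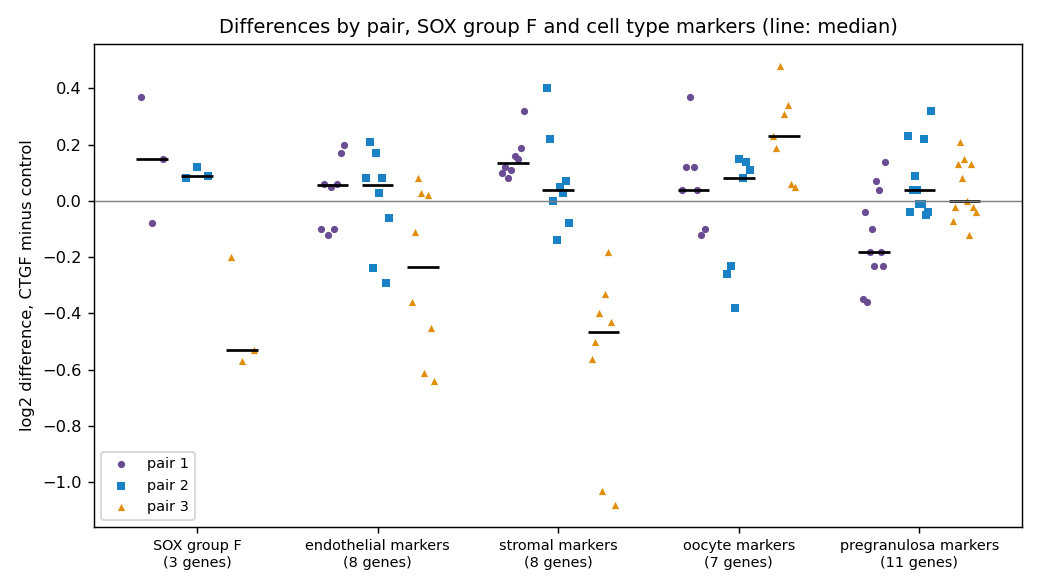
Log2 difference, CTGF minus control, by pair (purple circles, blue squares and orange triangles for pairs 1, 2 and 3) of the SOX group F genes and of 4 lists of cell type markers, with a black line at each median. In pair 3 the medians of SOX group F, endothelial and stromal markers are below 0 and that of the oocyte markers, at 0.23, is above it.

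The oocyte markers lay the other way in pair 3. Their median difference was 0.04, 0.08 and 0.23 in pairs 1, 2 and 3, and their summed signal was 4655 to 5155 in control and 4930 to 5441 with CTGF. The mean over pairs was above 0 for all 7, against 6958 of 14399 probe sets above background, but it ran from only 0.003 to 0.19. Of the 7, only Kit and Lhx8 had the same sign in all 3 pairs, and single markers were as low as -0.12 in pair 1 and -0.38 in pair 2. Kit, the receptor for KIT ligand on oocytes, had 0.12, 0.15 and 0.31, a difference of 0.19 ± 0.071 (SE) with unadjusted p = 0.0326 and adjusted p = 0.994 in limma. The call of Kit was lost without any 1 pair, with unadjusted p of 0.0649, 0.0889 and 0.0868 in limma without pairs 1, 2 and 3. Lhx8, a homeobox gene of oocytes, had 0.04, 0.08 and 0.34. Foxo3, known for its part in oocytes, was at -0.26, 0.10 and 0.24, so it lay below 0 in pair 1 where the oocyte median was 0.04. Which cells of the ovary its signal came from was not tested. The 11 pregranulosa markers had a median of -0.03. No gene of these marker lists passed an adjusted p of 0.05 in limma.

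The members above background as a group also differed by pair. Of these 16 genes, 12 were lower with CTGF in pair 1 (75%), against 45.5% of all probe sets above background. In pair 3, 11 of 16 were higher with CTGF (68.8%), against 45.7% of all probe sets above background. Their medians were -0.08, 0.05 and 0.11 in pairs 1, 2 and 3. Over all 42 members the counts were closer to even, with 22 below 0 and 20 above in pair 1, and 18 below and 23 above in pair 3. The pregranulosa markers were lower in pair 1 as well, with 8 of 11 below 0 and a median of -0.18, against 0.04 and 0.00 in pairs 2 and 3, and their part in the pair 1 values was not tested.

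The other 18 members below background had mean log2 signals from 4.02 to 5.44 and differences from -0.09 for Foxa3 to 0.13 for Foxn4. They were Foxb2, Foxs1, Foxe1, Foxd3, Foxn4, Foxn1, Foxa2, Foxd1, Sox14, Foxb1, Foxi1, Foxh1, Foxe3, Foxi2, Foxa1, Foxq1, Foxi3 and Foxa3, factors known mainly from other organs such as brain, endoderm and ear. Foxn4, a factor of retinal progenitors, was higher with CTGF by 0.30, 0.03 and 0.06. Foxe1, a thyroid factor, had -0.08 ± 0.065 (SE). Foxa2, an endoderm factor, and Foxd1, a factor of the kidney stroma, each had 0.07, Foxb1 had 0.09 and Foxi3 0.10, with the same sign in all 3 pairs. None of them had a signal that the array separates from genes of other organs.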

How the data were processed

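Biotin-labelled single-stranded DNA, made from the RNA of 3 control and 3 CTGF pools, was hybridised to Affymetrix whole-transcript rat arrays. The authors summarized the probes to a log2 signal per probe set by RMA in the Partek software (both named in the submitters' processing notes), and the methods add a GC-content adjustment. There are deposited log2 values for 27342 probe sets, and 0 columns were left without a sample. The array medians were 5.82 to 5.84. The number of arrays limits the precision.

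The 3 pair means of every probe set matched to within 0.005, so batch differences had been removed before deposit, a step the sources used here do not describe. Through this step, deviations from the group means within a pair had correlations of -0.9988, -0.9988 and -0.9991. The pairing itself comes from the culture batch in the labels. The step also gives both groups nearly equal SDs. These SDs follow from the spread of the pair differences and leave out the differences between batches.

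Symbols came from the platform annotation, with 1 symbol for 15097 probe sets, several for 323 and none for 11922. All 42 members kept their symbol in RefSeq. Differences were fitted to the deposited values with limma 3.58.1 (R 4.3.3) using lmFit, a term for culture batch and eBayes (prior degrees of freedom 4.22). P-values were adjusted by Benjamini-Hochberg across the whole array. The script was tested on simulated data. Un-logged means were used for ratios. The remaining tables and plots were made with Python 3.11.15, pandas 2.3.3 and matplotlib 3.10.9. Promoters were the 250 bases before the start in RefSeq on GRCr8, found for 27 of 42 members. The array annotation uses another assembly.

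The members, gene lists and tests were chosen with earlier results of these data known. Named members were the 10 SOX and 10 forkhead genes with the highest signal, the 4 higher and 4 lower with the smallest p, and those known in the gonad or marking a cell type. Members with the same sign in all 3 pairs and those given in ranges or as neighbours of the background level were named after their values were seen. From the lists up to 3 genes with the smallest p and 2 with the highest signal were eligible, and a selection of these was named. Alternatives were no batch block, quantile normalization, centred medians, eBayes with trend or robust, signal filters, omission of each pair, the 2-way test of the methods, the mean of all probe sets of a gene and other thresholds.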

Additional observations from a re-analysis of the deposited data

How the results depend on the processing

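Limits. With 3 pairs and 2 residual degrees of freedom, no call at an unadjusted p is firm. The count of probe sets and members with an adjusted p under 0.05 was 0 under every alternative run. Without the replicate block the unadjusted counts were 4415 probe sets (16.1%) and 11 members (26.2%), but that fit counts 4 residual degrees of freedom where the removal of batch means left 2. With a filter at the background level, 405 of 14399 probe sets were called, against 915 of 27342 without it. Of the 16 members kept by the filter, 5 had the same sign in all pairs, against 2749 of the 14399 probe sets. Members with an unadjusted p under 0.05 were 2 with medians centred, against 943 of all 27342 probe sets. They were 5 of 42 in the 2-way test, against 4.2% of all probe sets, and 0 to 3 with 1 pair left out, against 645 to 1244 probe sets. At the criteria of the methods there were 0 in the 2-way test and 0 to 1 with 1 pair left out. With the same sign in the pairs kept there were 19 to 23, since fewer pairs had to match. No share of all probe sets is given for these last counts, so they are not read as results about the members. With the median of the silent tissue genes as background, 37 of 42 members passed, against 12465 of all 14324 genes with a symbol of their own. At that level the members were therefore not short of all genes. The forkhead median was -0.0125 to 0.03 with 1 pair left out.

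Of 90 differences of 30 members with 1 pair left out, 16 in 14 genes turned sign, and of 51 of 17 list genes 4 in 3 genes. Their ranges were -0.11 to 0.085 for Foxj2, -0.125 to 0.015 for Foxj3, -0.025 to 0.175 for Foxn3, -0.08 to 0.17 for Foxo3, -0.24 to 0.01 for Foxp3, -0.05 to 0.11 for Sox4, -0.26 to 0.07 for Sox6, -0.06 to 0.23 for Sox7, -0.05 to 0.21 for Sox8, -0.07 to 0.035 for Sox10, -0.03 to 0.07 for Sox11, -0.065 to 0.115 for Sox13, -0.33 to 0.02 for Sox17, -0.22 to 0.12 for Sox18, -0.035 to 0.135 for Ccnb2, -0.35 to 0.07 for Emcn and -0.58 to 0.12 for Lum. Among 165 values of members under the other settings, 1 turned sign, Foxj2 with medians centred (0.0067), and among 81 of list genes 0 did. The causes were not tested.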
